A study of Homo sapiens with 6 samples.

Results

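The receptors of the epidermal growth factor receptor (EGFR) family, their ligands and a feedback inhibitor of these receptors were compared between LoVo cells with and without knockdown of SRSF11, a serine- and arginine-rich splicing factor. The members were the 10 rows of the count table whose gene name was EGFR, ERBB2, ERBB3, AREG, EREG, TGFA, HBEGF, BTC, EPGN or ERRFI1, of 58735 genes listed in all. RNA-seq was done on 3 libraries of cells given a negative control siRNA (si-NC) and 3 libraries of cells given an siRNA against SRSF11 (si-SRSF11). LoVo is an established line from a human colorectal cancer, so both groups carried the genome of a single line, and it is not stated which of the study's siRNAs against SRSF11 was used. The study speaks of pairs of independent RNA samples without saying what a pair shared, and since separate cultures are not described, p-values measure the spread between these samples, which may be technical.

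EGFR, ERBB2 and ERBB3 are receptor tyrosine kinases that signal as pairs. AREG (amphiregulin), EREG (epiregulin), TGFA (transforming growth factor alpha), HBEGF (heparin-binding EGF-like growth factor), BTC (betacellulin) and EPGN (epigen) are made as precursors anchored in the cell membrane, from which ADAM proteases cut the active ligand, and all of them bind EGFR. ERRFI1, also called MIG6, is induced by receptor signalling and binds the kinase domain of EGFR to restrain it. In colorectal cancer EGFR is a target of therapeutic antibodies, and AREG and EREG are the ligands most often followed in such tumours.

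The libraries held from 14369525 to 16685719 counts in genes. SRSF11 itself had 1271, 1281 and 1363 counts in si-NC and 789, 789 and 807 in si-SRSF11, a log2 fold change of -0.81 (standard error, SE, 0.054; adjusted p = 6.1e-10), so the targeted gene was lower in every library labelled as its knockdown. Of 10 epithelial markers all were tested, and their summed level was 5570 to 5896 CPM (counts per 1000000, scaled by the TMM method for library size and composition) in si-NC and 5663 to 6014 in si-SRSF11. CDX2 alone of these passed the test (log2 fold change 0.40, adjusted p = 0.00038), and KRT20 and CEACAM5, often used to mark colon epithelium, were near 1 CPM, while KRT8, EPCAM and CDH1 were abundant. The 6 fibroblast markers, 2 of them tested, summed to 19.7 to 23.2 and to 24.7 to 28.97 CPM, with DCN and LUM at 0 counts. PDGFRB carried the rise (log2 fold change 0.70, adjusted p = 0.00023). COL1A1 was at 12.7 CPM in si-NC and 11.7 in si-SRSF11 (log2 fold change -0.12, adjusted p = 0.47). The 6 immune markers, 1 of them tested, summed to 2.90 to 3.65 CPM in si-NC and 4.54 to 4.92 in si-SRSF11, with PTPRC at 0 counts. Most of that sum was the tested gene, CD14, at 2.96 and 3.77 CPM (log2 fold change 0.35, adjusted p = 0.22), without overlap. The 4 endothelial markers summed to 1.48 to 2.57 and 0.797 to 2.05 CPM, with KDR at 0. The 13 protein-coding genes of the mitochondrial genome made up 6.40% to 6.61% of the counts in si-NC and 7.69% to 7.95% in si-SRSF11, and 12 of the 13 rose, with log2 fold changes from 0.16 to 0.53, a set looked at after its values were seen. The part of the marker and mitochondrial differences in the results below was not tested.

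EGFR and its ligands AREG and EREG fell after SRSF11 knockdown, as did the inhibitor ERRFI1, while the partner receptors ERBB2 and ERBB3 rose. The changes were of similar size, between 16.1% and 21.0% of the control level. TGFA, HBEGF and BTC did not pass the test, and EPGN was almost undetected. The counts were modelled in edgeR (quasi-likelihood test) for the 15801 genes that reached 10 or more counts in 3 or more libraries, and adjusted p-values are those of Benjamini and Hochberg across this whole set. Of the 10 members 9 passed this filter, and 6 of these 9 had an adjusted p under 0.05, with 2 higher and 4 lower in si-SRSF11. Over all tested genes 24.6% passed, 13.2% higher and 11.4% lower, which is 2081 and 1805 genes; scaled by library size alone the split was 1585 higher and 2289 lower, with the same 6 members passing. In 7 of the 9 tested members the 3 values of one group lay wholly above those of the other, against 38.8% of all tested genes. Shares over all tested genes were not matched to the members by level, and the members were chosen with earlier results of these data known. The median log2 fold change was -0.07 over the 9 members and 0.0015 over all tested genes. No member changed by more than 2-fold, a size that 1.09% of tested genes reached with an adjusted p under 0.05. Against the stricter question of whether a change exceeded 1.2-fold (edgeR's glmTreat), 0 of 9 members passed by adjusted p and 0 at an unadjusted p under 0.05. By adjusted p 524 of all tested genes passed it, and the lowest adjusted p of a member there was 0.54. In a bulk sample, fewer cells making a transcript and less of it in each cell cannot be told apart.

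**Figure D1:**
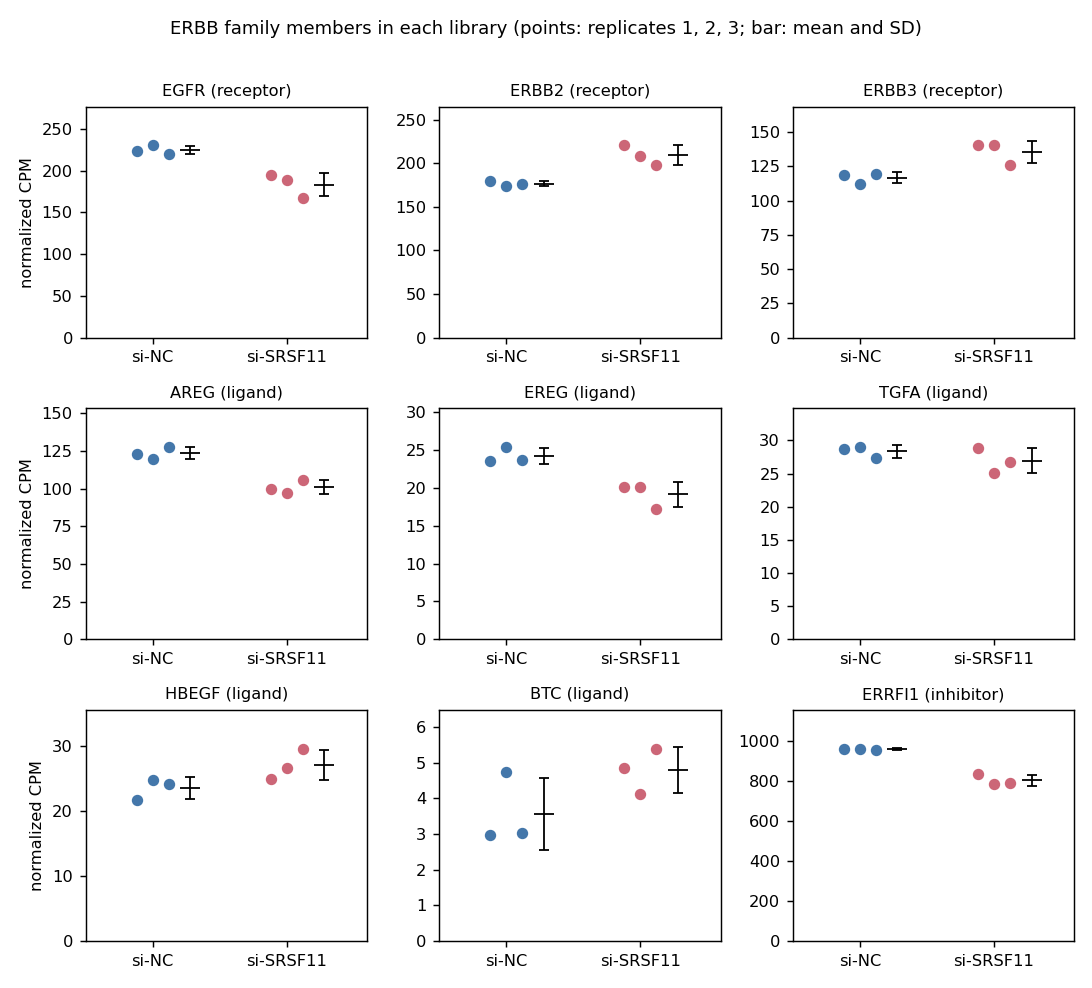
Each panel plots the level of 1 member in CPM (vertical axis, from 0, with its own scale) in the 3 si-NC libraries (blue) and the 3 si-SRSF11 libraries (red), with the mean and SD beside them. EGFR, AREG, EREG and ERRFI1 sit lower in all 3 si-SRSF11 libraries, ERBB2, ERBB3 and HBEGF sit higher, and TGFA and BTC overlap.

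The sequences just before the start of the 4 members that fell are given here, so that the letters near the start of genes that moved the same way can be set side by side. They are the 120 bases before the annotated start from RefSeq (assembly GRCh38.p14), written 5′ to 3′ on the gene's strand. Capitals mark TGACGTCA, the cAMP response element, and TATAAA, a form of the TATA box. An entry was found for 9 of 10 members, ERBB3 being the one without.
AREG: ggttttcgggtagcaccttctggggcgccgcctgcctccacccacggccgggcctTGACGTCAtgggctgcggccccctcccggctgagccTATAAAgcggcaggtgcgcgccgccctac
EREG: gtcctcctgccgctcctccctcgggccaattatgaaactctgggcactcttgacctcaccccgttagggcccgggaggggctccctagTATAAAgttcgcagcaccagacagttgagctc
EGFR: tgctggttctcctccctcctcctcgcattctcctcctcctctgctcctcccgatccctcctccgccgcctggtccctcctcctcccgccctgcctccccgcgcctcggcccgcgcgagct
ERRFI1: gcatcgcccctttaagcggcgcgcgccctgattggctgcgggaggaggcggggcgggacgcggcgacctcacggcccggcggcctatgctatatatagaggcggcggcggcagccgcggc

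These stretches lie at chr4:74445016-74445135 for AREG, chr4:74365025-74365144 for EREG and chr7:55018897-55019016 for EGFR, all on the plus strand, and at chr1:8026310-8026429 on the minus strand for ERRFI1. The motifs were searched on both strands of the 250 bases before each start. TATAAA was found in AREG and EREG, 29 and 32 bases before the start, and in 10.7% of the 35116 promoter entries searched. TGACGTCA, a palindrome, was found in AREG 65 bases before the start and in 1.65% of entries. Neither exact string was found in the 250 bases of ERRFI1 or in the first of the pair of entries for EGFR. Variants of these letters were not searched, such as the tatatata in the printed stretch of ERRFI1. TATAAA also stood in EPGN, which was almost undetected, and in the second entry for EGFR. A GC box, GGGCGG, was found in AREG, EGFR (first entry) and ERRFI1, in TGFA (first entry) and HBEGF, which did not pass the test, and in 42.6% of entries. The AP-1 site TGANTCA was found in ERBB2, which rose, in the second entry for EGFR and in 6.57% of entries. G and C made up 65.2% of the 250 bases in AREG, 58.0% in EREG, 73.6% in EGFR and 75.2% in ERRFI1. A match is a description of the letters and not of a bound site.

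Among the receptors, EGFR (ENSG00000146648, chromosome 7, 55019021 to 55211628, plus strand) binds all of the ligands above. It had 3241, 3504 and 3433 counts in si-NC and 3045, 3060 and 2730 in si-SRSF11. After scaling these were 223.5, 230.5 and 220.4 CPM against 194.7, 188.3 and 167.4. Every knockdown library was below every control library, with replicate 3 lowest. The mean fell from 224.8 ± 5.21 CPM (SD, n = 3) to 183.5 ± 14.3 (SD, n = 3), a log2 fold change of -0.29 (SE 0.053, 95% interval -0.40 to -0.18, adjusted p = 0.00033). The antisense gene EGFR-AS1 shares 1.49% of the exon bases of EGFR and had from 2 to 12 counts per library.

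ERBB2, also known as HER2, has no known ligand of its own and is the favoured partner of the other receptors. Its gene (ENSG00000141736, chromosome 17, 39687914 to 39730426, plus strand) stood at 2601, 2635 and 2751 counts in si-NC and 3452, 3388 and 3230 in si-SRSF11. In CPM the libraries were at 179.4, 173.4 and 176.6 against 220.7, 208.5 and 198.1. The groups did not overlap, and the spread within the knockdown group was the larger. The mean rose from 176.4 ± 2.99 to 209.1 ± 11.3 CPM (SD, n = 3 each), a log2 fold change of 0.24 (SE 0.049, 95% interval 0.14 to 0.35, adjusted p = 0.00086). The opposite-strand neighbours MIEN1 and PGAP3 share 7.41% of the exon bases of ERBB2, and neither the kit nor the counting is stated to keep strand, so reads there cannot be told apart. MIEN1 had a log2 fold change of -0.08 (adjusted p = 0.52) and PGAP3 of 0.25 (adjusted p = 0.074), both looked up after their values were seen.

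ERBB3 binds neuregulins, has a weak kinase of its own and passes signals to the phosphoinositide 3-kinase pathway through its partners. Its gene (ENSG00000065361, chromosome 12, 56076799 to 56103505, plus strand) stood at 1723, 1704 and 1862 counts in si-NC and 2197, 2281 and 2056 in si-SRSF11. These corresponded to 118.8, 112.1 and 119.5 CPM against 140.5, 140.3 and 126.1. In CPM the lowest knockdown library, replicate 3, lay above the highest control library. ERBB3 rose from 116.8 ± 4.09 to 135.6 ± 8.27 CPM (SD, n = 3 each), a log2 fold change of 0.22 (SE 0.052, 95% interval 0.11 to 0.32, adjusted p = 0.0039).

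Among the ligands, amphiregulin was the most abundant. AREG (ENSG00000109321, chromosome 4, 74445134 to 74455009, plus strand) stood at 1787, 1817 and 1989 counts in si-NC and 1556, 1582 and 1728 in si-SRSF11. Scaled for depth, the values were 123.2, 119.6 and 127.7 CPM against 99.49, 97.34 and 106.0. The raw counts of the groups came close, at 1728 in the highest knockdown and 1787 in the lowest control library, and the scaled values stood clear of each other. AREG fell from 123.5 ± 4.07 to 100.9 ± 4.49 CPM (SD, n = 3 each), a log2 fold change of -0.29 (SE 0.050, 95% interval -0.39 to -0.19, adjusted p = 0.00018).

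Epiregulin binds EGFR and also the fourth receptor of the family, ERBB4. EREG (ENSG00000124882, chromosome 4, 74365143 to 74388751, plus strand) stood at 342, 386 and 368 counts in si-NC and 314, 326 and 281 in si-SRSF11. In CPM this gave 23.58, 25.4 and 23.62 against 20.08, 20.06 and 17.23. All knockdown libraries were below the controls, with replicate 3 lowest as for EGFR. EREG fell from 24.2 ± 1.04 to 19.1 ± 1.64 CPM (SD, n = 3 each), the steepest fall among the members that passed, with a log2 fold change of -0.34 (SE 0.089, 95% interval -0.53 to -0.16, adjusted p = 0.0074). Its interval overlaps those of AREG, EGFR and ERRFI1, and differences between members were not tested.

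HBEGF, a ligand of EGFR and ERBB4 that also serves as the receptor for diphtheria toxin (ENSG00000113070, chromosome 5, 140332843 to 140346631, minus strand), had 313, 377 and 376 counts in si-NC and 390, 433 and 482 in si-SRSF11. Its CPM values were 21.58, 24.81 and 24.14 against 24.94, 26.64 and 29.56. The groups did not overlap, but the highest control and the lowest knockdown library were almost level. The log2 fold change of 0.20 (SE 0.086, 95% interval 0.02 to 0.38) had an adjusted p of 0.094 and did not pass the test.

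Transforming growth factor alpha, whose gene TGFA (ENSG00000163235) lies on chromosome 2 from 70447280 to 70554193 on the minus strand, had 417, 441 and 425 counts in si-NC and 452, 408 and 437 in si-SRSF11. After scaling it stood at 28.75, 29.02 and 27.28 CPM against 28.9, 25.1 and 26.8, and the groups overlapped. Its log2 fold change was -0.07 (95% interval -0.24 to 0.09, adjusted p = 0.54), an interval that leaves out falls as large as the estimates for EGFR and AREG.

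Betacellulin, which binds EGFR and ERBB4, was scarce. BTC (ENSG00000174808, chromosome 4, 74744759 to 74794686, minus strand) had 43, 72 and 47 counts in si-NC and 76, 67 and 88 in si-SRSF11, or 2.965, 4.737 and 3.017 CPM against 4.859, 4.122 and 5.397. Replicate 2 of si-NC lay within the range of the knockdown libraries. The log2 fold change was 0.42 (SE 0.205, 95% interval -0.0034 to 0.85, adjusted p = 0.14), and without si-NC replicate 2 it was 0.68 with an adjusted p of 0.031. Epigen, the last ligand, gave 1 count over the 3 si-NC libraries and 1 over the 3 si-SRSF11 libraries for its gene EPGN (ENSG00000182585, chromosome 4, 74308473 to 74315307, plus strand), too few for any fold.

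ERRFI1, the inhibitor (ENSG00000116285, chromosome 1, 8004404 to 8026308, minus strand), was the member with the most reads, at 13942, 14588 and 14855 counts in si-NC and 13055, 12748 and 12833 in si-SRSF11. The control libraries were tightly grouped at 961.4, 959.8 and 953.6 CPM, and the knockdown libraries followed at 834.7, 784.4 and 787.0. No knockdown library came near the controls. ERRFI1 fell from 958.3 ± 4.11 to 802.0 ± 28.4 CPM (SD, n = 3 each), a log2 fold change of -0.26 (SE 0.043, 95% interval -0.35 to -0.17, adjusted p = 0.00013), the smallest adjusted p among the members. The antisense gene AL034417.4 shares 3.70% of its exon bases and had from 19 to 37 counts per library.

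The knockdown libraries also differed among themselves. Replicate 3 of si-SRSF11 had the lowest CPM of the knockdown group for EGFR, ERBB2, ERBB3 and EREG and the highest for AREG, HBEGF and BTC. For single genes an exact two-sided permutation test over 3 against 3 libraries cannot give a p below 0.10, the value reached by each of the 7 members whose groups did not overlap.

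**Figure D2:**
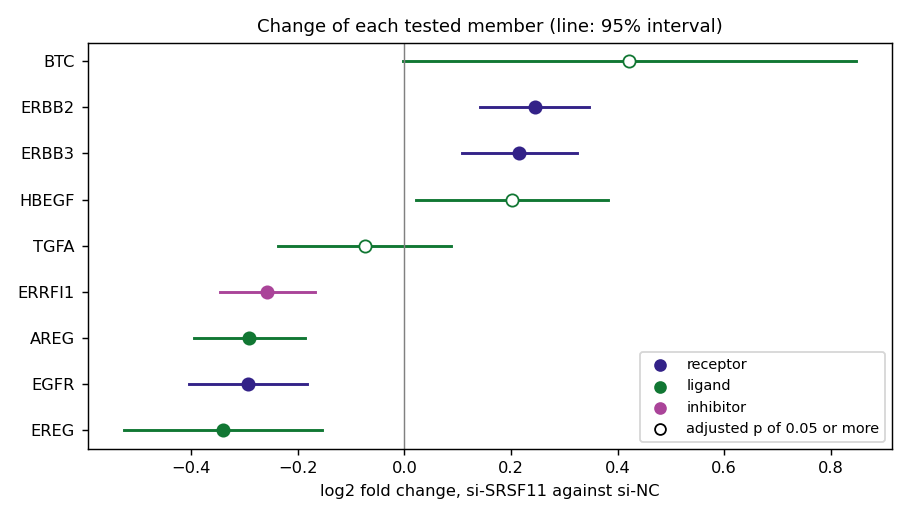
The log2 fold change of each tested member, si-SRSF11 against si-NC (horizontal axis), with a line for its 95% interval from the edgeR fit; blue marks receptors, green ligands and pink the inhibitor, and open circles an adjusted p of 0.05 or more. EGFR, AREG, EREG and ERRFI1 lie between -0.34 and -0.26, ERBB2 and ERBB3 at 0.24 and 0.22, and the interval of BTC is the widest.

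Levels of different genes were compared per length, in TPM (the counts of a gene over its length, as a share of the sum of these over all genes, in parts per 1000000), computed from the counts and the listed exon length of each gene. In si-NC the order was ERRFI1 at 688.5 ± 6.59 TPM, AREG at 225.4 ± 7.49, EGFR at 54.0 ± 1.21, ERBB2 at 51.4 ± 1.16, ERBB3 at 38.9 ± 1.48, HBEGF at 23.4 ± 1.56, TGFA at 17.2 ± 0.611, EREG at 12.7 ± 0.506, BTC at 3.81 ± 1.06 and EPGN at 0.0384 (SD, n = 3 each). No neighbours in this order overlapped, though EGFR (52.75 to 55.17) and ERBB2 (50.33 to 52.64) nearly met. In TPM, ERRFI1 stood above 99.1% of tested genes in si-NC, AREG above 96.7%, EGFR above 82.8% and BTC above 24.0%.

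In si-SRSF11 the receptors changed places. ERBB2 came first at 57.6 ± 4.43 TPM, followed by ERBB3 at 42.6 ± 3.40 and EGFR at 41.6 ± 4.10, whose libraries overlapped (SD, n = 3 each). The order of the other members was the same. TPM is scaled by the sum over all genes and not by TMM, and it runs lower in si-SRSF11 than CPM does. EPCAM, for example, was at 284.9 and 284.6 TPM but at 238.6 and 252.5 CPM in si-NC and si-SRSF11. In TPM the si-NC and si-SRSF11 libraries overlapped for ERBB3 (37.17 to 39.82 against 38.78 to 45.19 TPM) and HBEGF (21.66 to 24.63 against 24.02 to 27.23 TPM), which stood apart in CPM. The order of EGFR and ERBB2 within si-NC depends on the length used, since with the longest coding transcript in place of all exons ERBB2 stood at 110.7 ± 2.50 TPM and EGFR at 68.8 ± 1.54, a choice added after the data were seen.

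**Figure D3:**
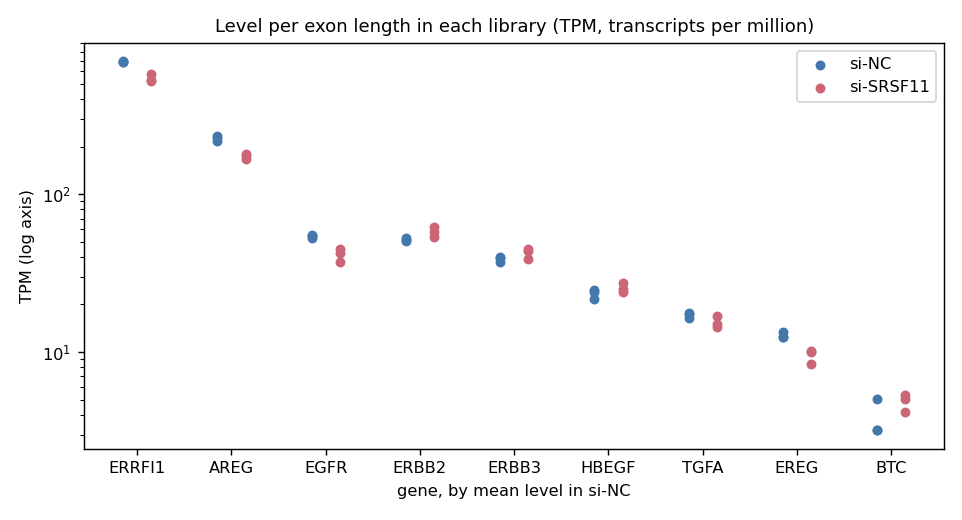
TPM of 9 members in each library on a log axis, with genes ordered by their mean in si-NC, si-NC in blue and si-SRSF11 in red. ERRFI1 and AREG lie above the receptors, and EGFR, ERBB2 and ERBB3 differ less from each other than from AREG.

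As a share of the summed TPM of the 3 receptors, EGFR made up 36.9%, 38.67% and 36.72% in si-NC and 29.63%, 29.62% and 28.75% in si-SRSF11, and the groups stood well apart. With the longest coding transcripts the mean share was 28.8% and 21.9%. ERBB2 went from 35.6% to 40.6% and ERBB3 from 26.9% to 30.1% as means, and these also did not overlap. The summed TPM of the receptors was 144.3 ± 2.00 in si-NC and 141.8 ± 11.7 in si-SRSF11 (SD, n = 3 each) and overlapped. Within each library the count ratio of EGFR to ERBB2, which needs no scaling, was 1.246, 1.33 and 1.248 in si-NC and 0.882, 0.903 and 0.845 in si-SRSF11, so EGFR had more counts than ERBB2 in every control library and fewer in every knockdown library.

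Other pairs that moved the same way kept overlapping ratios. The TPM ratio of ERBB2 to ERBB3 was 1.32 in si-NC and 1.35 in si-SRSF11 as a mean of 3 libraries, that of ERRFI1 to EGFR was 12.8 and 13.1, and the count ratio of AREG to EREG was 5.11 ± 0.362 and 5.32 ± 0.721 (SD, n = 3 each). In each of these the libraries of the groups overlapped, which does not show that the ratios were equal.

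The ligands together had 282.5 ± 5.27 TPM in si-NC and 229.0 ± 7.42 in si-SRSF11 (SD, n = 3 each), without overlap. Part of that difference is one of scale, since TPM runs lower in si-SRSF11 than CPM does. AREG provided most of that sum, at 80.46%, 78.23% and 80.56% in si-NC and 75.75%, 75.77% and 76.16% in si-SRSF11. The share of HBEGF went from 8.29% to 11.1%, that of TGFA from 6.08% to 6.73% and that of BTC from 1.35% to 2.10%, each without overlap, while EREG at 4.51% and 4.16% overlapped. Shares of a fixed sum are not independent of each other.

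EPGN, EREG, AREG and BTC lie side by side on chromosome 4 within 486.2 kb, and the 4 protein-coding genes annotated in that stretch are these members. EPGN, EREG and AREG are read on the plus strand and BTC on the minus strand. EREG and AREG, 56.4 kb apart, both fell. BTC, 289.8 kb beyond AREG, had a positive log2 fold change that did not pass, and EPGN, 49.8 kb before EREG, was near 0 counts, so the neighbours of the cluster ranged from almost undetected to above 96.7% of tested genes.

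The remaining genes of the family were scarce or not detected. ERBB4, the fourth receptor, and the neuregulins NRG1 and NRG3 had 0 counts in all 6 libraries, which allows up to 0.0669 CPM in si-NC and 0.0614 in si-SRSF11 (3 counts over each group, counting error only). EGF, the founding ligand, had 116, 104 and 106 counts in si-NC and 95, 92 and 76 in si-SRSF11, without overlap after scaling, with a log2 fold change of -0.40 (SE 0.15, adjusted p = 0.059) that did not pass. NRG2 had from 26 to 56 counts (log2 fold change 0.28, adjusted p = 0.45), and NRG4 had 8 counts over si-NC and 1 over si-SRSF11. NRG1 and NRG2 are the neuregulins that bind ERBB3.

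Genes that release the ligands, relay the signal or restrain the receptors were described by lists. The lists were chosen with earlier results of these data known, and shares over all tested genes were not matched to them by level. Of 86 such genes 82 were tested and 29 had an adjusted p under 0.05, 14 higher and 15 lower, or 35.4% of those tested against 24.6% of all tested genes. Scaled by library size alone the split was 10 higher and 22 lower. Leaving out any control library lowered the count of 29. It was 20 without si-NC replicate 1, 19 (8 higher) without replicate 2 and 18 (8 lower) without replicate 3. The count over all tested genes also fell, from 3886 to 2733, 3009 and 2860. The genes named in each list come from the 4 with the smallest adjusted p.

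Ligand release covers ADAM proteases, their rhomboid-like cofactors, the inhibitor gene TIMP3, and FRMD8, FURIN, NRDC, CD9, NKD2 and CNIH1. It had 14 of 15 genes tested and 9 that passed, 5 higher and 4 lower. That is 64.3% of those tested, against 24.6% of all tested genes, with a median log2 fold change of 0.02. RHBDF2, a partner that carries the protease ADAM17 to the cell surface, rose from 62.5 ± 1.82 to 87.4 ± 3.52 CPM (log2 fold change 0.48, adjusted p = 9.2e-07). ADAM19 rose from 22.4 ± 0.60 to 33.1 ± 2.10 CPM (0.56, adjusted p = 1.5e-05) and ADAM15 from 195.0 ± 9.18 to 239.9 ± 11.1 CPM (0.30, adjusted p = 0.00015). RHBDF1, the close relative of RHBDF2, moved the other way, from 84.0 ± 4.75 to 69.6 ± 3.71 CPM (-0.27, adjusted p = 0.0014). ADAM17 itself, the main protease for AREG, EREG, TGFA and HBEGF, fell by 0.19 on the log2 scale (adjusted p = 0.033). ADAM10 rose by 0.17 (adjusted p = 0.036) and the inhibitor gene TIMP3 by 0.16 (adjusted p = 0.018). ADAM17, ADAM10 and TIMP3 were named after their values were seen. Errors here are SD with n = 3 in each group.

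Signal relay, from adaptors through RAS and ERK to AKT and STAT genes, had 33 of 35 genes tested and 8 that passed, 3 higher and 5 lower. That is 24.2% of those tested, close to the 24.6% of all tested genes, with a median of -0.04. GAB2, a docking adaptor, fell from 84.7 ± 3.19 to 62.8 ± 3.59 CPM (SD, n = 3 each), a log2 fold change of -0.43 (adjusted p = 8.1e-06), and the transcription factor gene STAT5B fell by 0.26 on the log2 scale (adjusted p = 0.0014). VAV2, a guanine nucleotide exchange factor, rose by 0.26 (adjusted p = 0.0018) and PLCG1, phospholipase C gamma, by 0.25 (adjusted p = 0.0023), both on the log2 scale.

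Receptor restraint, made up of phosphatases, ubiquitin ligases, endocytic adaptors and feedback genes, had 35 of 36 genes tested and 12 that passed, 6 higher and 6 lower. That is 34.3% of those tested, against 24.6% of all tested genes, with a median of 0.01. PTPN1, a phosphatase that acts on EGFR and ERBB2, fell by 0.28 on the log2 scale (adjusted p = 0.00040). The receptor phosphatase PTPRK rose by 0.28 (adjusted p = 0.0014) and RASA1, which turns RAS off, by 0.43 (adjusted p = 0.0037). CBL, the ubiquitin ligase that marks EGFR for degradation, fell by 0.18 on the log2 scale (adjusted p = 0.038). HGS, which sorts EGFR to lysosomes, fell by 0.17 (adjusted p = 0.013). SH3KBP1, of the same list, rose by 0.19 (adjusted p = 0.017), and CBLB and CBLC did not pass. CBL, HGS, SH3KBP1, CBLB and CBLC are named here for their role after their values were seen.

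**Figure D4:**
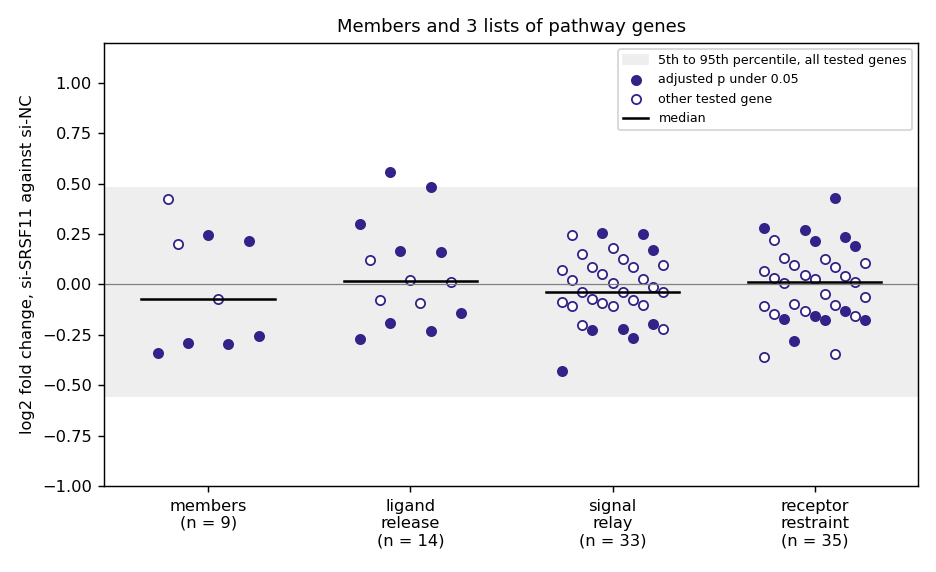
The log2 fold change, si-SRSF11 against si-NC (vertical axis), of each tested gene among the members and in the 3 lists, filled where the adjusted p was under 0.05, with the median as a bar and the 5th to 95th percentile of all tested genes in grey. The medians lie between -0.07 and 0.02, and each list holds genes that passed in both directions.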

How the data were processed

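The authors deposited a table of raw counts per gene for 6 libraries, made from paired-end reads of a poly(A) library kit not stated to keep strand. The aligner and counting program are not given in the sources used here. All 58735 gene IDs and coordinates matched GENCODE release 29 (Ensembl 94) on GRCh38. Samples were grouped by their labels. Counts were scaled by TMM and tested in edgeR 4.0.16 (R 4.3.3; quasi-likelihood, no covariate) over genes reaching 10 counts in 3 or more libraries, and p-values were adjusted by Benjamini-Hochberg over 15801 genes. Scripts were tested on simulated data. Intervals are 95%. The biological coefficient of variation was 5.34%, and limits for 0 counts cover counting error only. TPM was computed from the counts and listed gene lengths. Alternatives were DESeq2 1.42.0, other scalings and filters, a replicate block, a fold threshold and leaving out each library. The members and gene lists were chosen with earlier results of these data known. All members were named, and in each list the 4 genes with the smallest adjusted p, of which 1 is not reported here.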

Additional observations from a re-analysis of the deposited data

How the results depend on the processing

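The 6 members that passed also passed under every alternative run except the 1.2-fold threshold, where 0 members passed (0 higher, 0 lower) and 524 of all genes. Leaving out single libraries gave 6 to 7 members, BTC being the seventh without si-NC replicate 2. No member changed direction. The log2 fold changes ranged from -0.34 to -0.24 for EGFR, 0.20 to 0.28 for ERBB2, 0.18 to 0.26 for ERBB3 (highest adjusted p 0.039), -0.33 to -0.27 for AREG, -0.38 to -0.28 for EREG (highest adjusted p 0.043), -0.29 to -0.24 for ERRFI1, -0.13 to -0.03 for TGFA and 0.13 to 0.25 for HBEGF (lowest adjusted p 0.057). Of the pathway genes 18 to 30 passed when single libraries were left out, 8 to 16 higher and 8 to 16 lower. With library size alone, which moved the median of all genes by -0.034, 1585 genes were higher and 2289 lower, against 2081 and 1805 with TMM. Without the filter 0 members stayed untested, against 1, and without length 4 of 10 members kept their rank. With the replicate number as a block, 6 members, 32 pathway genes and 4036 of all genes passed, and as same-numbered libraries deviated together only weakly (correlations 0.015, 0.036 and 0.040), the numbers were not taken as pairs although the study speaks of pairs of samples. EPGN had too few counts for a test. The causes of these changes were not tested.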
